A study of Mus musculus with 4 samples.

Results

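The Sox transcription factor genes Sox2, Sox4, Sox6, Sox9 and Sox11 were examined in single cells of the embryonic mouse brain. They were chosen by symbol, with earlier results of these data known. They make up 5 of the 27998 gene rows of the Illumina matrices and 12 of the 31986 annotated isoform rows of the Nanopore matrices. In the smaller aliquot they are 8 of 20834 isoform rows and in the larger one 11 of 30724. The cells came from 1 untreated C57BL/6 mouse at E18, in which hippocampus, cortex and the sub ventricular zone were dissociated together. Cells were captured once on the Chromium system, and the droplets were divided ahead of the reverse transcription into portions that gave 190 and 951 cells, each sequenced as 3′ tags by Illumina and as long reads by Nanopore from the same cDNA. Both aliquots come from the same dissociation and capture, so all p-values below measure only the spread between technical replicates.

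After requiring 1400 detected genes per cell, 186 and 935 cells were kept, 1121 of 1141 in all. They held 1809081 and 8295650 unique molecular identifiers (UMIs) in the Illumina matrices and 993220 and 4889148 in the Nanopore isoform matrices. The aliquots shared 13 cell barcodes, 12 of them among kept cells, of which 10 fell in the same class in both. Clustering without any Sox gene gave clusters that were named from marker lists and made up 8 classes: radial glia-like (70 cells), cycling radial glia-like (117), intermediate progenitor-like (87), immature glutamatergic-like (232), mature glutamatergic-like (279), immature GABAergic-like (175), mature GABAergic-like (142) and Cajal-Retzius-like (16). Both glutamatergic-like classes pool clusters that had only 1 or 2 of their own markers among their top 10 genes. In the less clear of the mature clusters, 4 of 7 markers were raised, with a mean log2 score of 0.55 against 0.206 for the immature class. Another 3 cells carried microglial markers and were set aside. Endothelial markers summed to at most 15.3 CPM (UMIs of a gene per 1000000 UMIs) in any class. This highest sum was in the radial glia-like cells, where 2 of 5 markers, Pecam1 and Kdr, had UMIs and Cldn5, Flt1 and Cdh5 had 0. Markers of the oligodendrocyte lineage (Olig1, Olig2, Pdgfra, Cspg4) summed to 154 CPM in the cycling radial glia-like cells. They summed to 64.2 CPM in the intermediate progenitor-like and 45.7 in the radial glia-like cells. Their part in the Sox levels of these classes was not tested.

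Sox proteins bind the minor groove of DNA through a domain called the HMG box and usually act together with partner transcription factors. In the developing brain they follow one another: SoxB1 factors such as Sox2 keep cells in a progenitor state, the SoxE factor Sox9 acts in neural stem cells and in the onset of gliogenesis, and the SoxC factors Sox4 and Sox11 act in newly formed neurons. The SoxD factor Sox6, which has no activation domain of its own, is known from cortical progenitors and from the maturation of cortical interneurons.

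The HMG box is what these genes share, and the coding sequence of its first part is shown to place the members beside one another. The stretch of 60 bases, read from Gencode vM21 transcripts on GRCm38 along each gene's own strand, starts at the same codon of the box in every gene. Capitals mark the 28 bases that are identical in all 5 genes.
Sox2: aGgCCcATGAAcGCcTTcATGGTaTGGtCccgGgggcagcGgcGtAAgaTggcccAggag
Sox4: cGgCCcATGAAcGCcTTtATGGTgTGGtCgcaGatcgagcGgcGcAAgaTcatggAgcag
Sox11: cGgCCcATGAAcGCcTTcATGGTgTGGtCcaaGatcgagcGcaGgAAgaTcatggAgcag
Sox9: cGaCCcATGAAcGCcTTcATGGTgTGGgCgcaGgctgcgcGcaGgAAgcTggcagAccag
Sox6: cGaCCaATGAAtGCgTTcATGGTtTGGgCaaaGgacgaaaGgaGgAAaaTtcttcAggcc
Over 210 coding bases from the same start, Sox4 and Sox11 were identical at 191 (91.0%). Identity of Sox9 was 75.2% with Sox11 and 73.8% with Sox4, and Sox2 reached 71.9% with Sox9. Sox6 was the most distant, with 56.2% to 58.1% identity to the others.

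The genes differ in how their transcripts are built. Sox2 (chr3:34650405-34652461, plus strand, 2057 nt), Sox4 (chr13:28948919-28953713, minus strand, 4795 nt) and Sox11 (chr12:27334264-27342574, minus strand, 8311 nt) each have 1 annotated transcript with 1 exon, and their printed stretches lie in that exon at chr3:34650548-34650607, chr13:28952782-28952841 and chr12:27342199-27342258. Sox9 (chr11:112782224-112787760, plus strand, 4135 nt) has 1 transcript of 3 exons, with the stretch in exon 1 at chr11:112782903-112782962. Sox6 (chr7:115470872-116038796, minus strand) has 16 annotated transcripts of 1 to 17 exons, and in the isoform Sox6-205 the stretch lies in exon 13 of 15 at chr7:115489703-115489762. Sox2 lies inside Sox2ot, a noncoding gene on the same strand, so reads of unspliced Sox2ot and of Sox2 cannot be told apart there. Sox2ot was not analysed here. Sox4 and Sox6 overlap other annotated genes on the opposite strand only.

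The first comparison asked how fully each Sox gene is represented among isoform-assigned long reads. The authors assigned a Nanopore UMI to an annotated isoform only where its exon structure matched in full, and guided the search by the UMIs that Illumina had found for the same gene and cell, so the platforms' counts are not independent. Recovery is the count of isoform-assigned Nanopore UMIs as a percent of the Illumina count, and single molecules were not matched. It was high for the single-exon genes and low for the spliced genes. For Sox2, the Nanopore count was 208 against 245 by Illumina in the 190 cell aliquot and 896 against 1031 in the 951 cell aliquot. This is a recovery of 84.9% and 86.9%. For Sox4 the counts were 3133 against 3691 and 11170 against 12420, 84.9% and 89.9%. For Sox11 they were 2055 against 3165 and 11569 against 14641, 64.9% and 79.0%.

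Sox9 and Sox6 had a low recovery. Sox9 fell from 118 and 447 Illumina UMIs to 10 and 55 Nanopore UMIs, a recovery of 8.48% and 12.3%. Sox6 fell from 39 and 215 to 6 and 19 UMIs, 15.4% and 8.84%. The values of the single-exon and the spliced members did not overlap in either aliquot.

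The same was counted per cell. Of the 1094 cells with a Sox4 UMI by Illumina, 99.2% also had one by Nanopore, as had 97.4% of 1105 cells with Sox11 and 90.7% of 454 cells with Sox2. For Sox9 this held for 22.4% of 254 cells and for Sox6 for 13.7% of 168 cells. No cell had a Nanopore UMI of a member without an Illumina UMI of it. The authors searched only among Illumina UMIs of the same cell and gene or genomic region, so this absence is no sign of agreement. The Nanopore count exceeded the Illumina count in 16 cells for Sox4, 6 for Sox11 and 1 for Sox2.

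Relative to all genes, the change in representation was tested with edgeR's quasi-likelihood test on the library sums, with Benjamini-Hochberg adjustment over 9855 genes. All 5 members passed the filter on low counts and the test, where 50.5% of all genes tested were called (20.2% higher and 30.3% lower by Nanopore). As a share of its library, Sox4 was higher by Nanopore (log2 fold change 0.74 ± 0.19 SE, edgeR adjusted p = 0.0191), as were Sox2 (0.72 ± 0.10, adjusted p = 0.00289) and Sox11 (0.47 ± 0.11, adjusted p = 0.0136). Sox9 was lower (-2.27 ± 0.19, edgeR adjusted p = 0.000503) and so was Sox6 (-2.32 ± 0.27, adjusted p = 0.00148). Without the larger Illumina library, Sox4 no longer passed (0.52, edgeR adjusted p = 0.258). With so large a share of genes called, the calls themselves are no result about the Sox genes.

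Exon number alone did not order the recovery. Among 5697 genes with at least 200 Illumina UMIs that matched the annotation, single-exon genes had a median recovery of 73.9%, with the middle 50% of them between 1.32% and 86.5%. The median was 55.7% for genes with 2 exons at most, 64.8% for 3, 71.2% for 4 to 6, 63.6% for 7 to 12, 33.9% for over 12 and 56.8% over all. Genes without a Nanopore row are counted as not recovered, among them 37 of 157 single-exon genes. Sox4 stood above 97.0% of these genes, Sox2 above 93.4% and Sox11 above 73.8%, whereas Sox9 stood above 16.5% and Sox6 above 15.1%. Sox9 lay below the lower quartile of its own exon group, which was 23.2%.

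**Figure D1:**
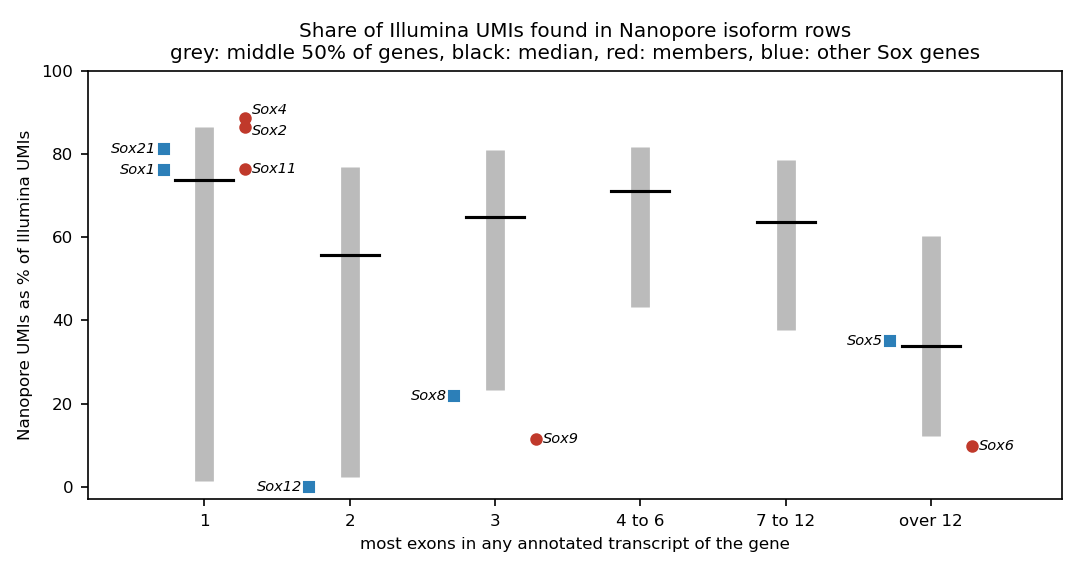
Nanopore UMIs as a percent of Illumina UMIs (y axis) by the largest number of exons in any annotated transcript of a gene (x axis), with grey bars for the middle 50% of 5697 genes, black lines for medians, red circles for the 5 members and blue squares for other Sox genes. Sox2, Sox4 and Sox11 sit at 86.5%, 88.8% and 76.5% in the single-exon column, while Sox9 at 11.5% and Sox6 at 9.84% lie below the grey bars of their columns.

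The other Sox genes with at least 100 Illumina UMIs followed the same divide with 1 exception. Sox1 and Sox21, both with a single exon, had a recovery of 76.4% of 241 and 81.3% of 198 Illumina UMIs. Sox5, the SoxD relative of Sox6, had 35.1% of 729 and Sox8, the SoxE relative of Sox9, had 21.7% of 115. The exception was Sox12, the remaining SoxC gene, which had no Nanopore isoform row in spite of 585 Illumina UMIs. It has 2 annotated transcripts, 1 with a single exon and 1 with 2 exons. Of 173 genes with 2 exons at most, 31 had no such row, Sox12 among them. Of the 15 other Sox genes 5 could be tested between platforms and 2 were called, beside 50.5% of all genes: Sox21 was higher (log2 fold change 0.62 ± 0.19) and Sox8 lower (-1.35 ± 0.31, edgeR adjusted p = 0.0361 and 0.0141).

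Recovery also varied between the cells in which a gene was counted. Sox11 was recovered at 60.5% in radial glia-like cells (239 of 395 UMIs, 95% exact binomial interval 55.5 to 65.4) and at 75.3% to 79.3% in the 6 other classes tested. The interval of the radial glia-like cells overlapped none of these, but it pools aliquots that differed. In radial glia-like cells recovery was 33 of 80 UMIs (41.25%) in the 190 cell and 206 of 315 (65.4%) in the 951 cell aliquot. The 6 other classes were at 61.96% to 66.56% in the 190 cell and at 77.69% to 81.7% in the 951 cell aliquot. Sox6 gave 15 Nanopore UMIs of 77 in radial glia-like cells (19.5%, 11.3 to 30.1) and 2 of 73 in mature GABAergic-like cells (2.74%, 0.334 to 9.55), although Illumina counted it about equally often in both. Sox2 was recovered at 85.9% to 91.6% in progenitor-like and GABAergic-like cells, but at 66.7% of 45 UMIs in immature and 39.3% of 28 UMIs in mature glutamatergic-like cells (intervals 51.0 to 80.0 and 21.5 to 59.4). Over both aliquots Sox4 stayed between 85.0% and 92.1% in the 7 classes tested. In radial glia-like cells it was at 76.19% (80 of 105 UMIs) in the 190 cell and 86.87% (430 of 495) in the 951 cell aliquot. The 6 other classes were at 82.64% to 89.81% and at 87.87% to 92.68%. These intervals cover counting error only, and the differences were not tested across samples.

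Isoform usage could not be compared. Sox2, Sox4, Sox9 and Sox11 had 1 isoform row each, and the 25 Sox6 UMIs were spread over 8 isoforms, none of which passed the filter on low counts. Sox6-205, with 15 exons, took 10 UMIs, Sox6-204, with 16 exons, took 6, and the retained-intron transcript Sox6-209 took 4, while each of the other 5 had 1. Of the 10 UMIs of Sox6-205, 7 were in radial glia-like cells, and of the 6 of Sox6-204, 4 were.

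The next comparisons followed the members from radial glia-like cells to neurons. Levels are Illumina CPM within a class, and since the tags mark 3′ ends they were not divided by length. Sox2 and Sox9 were high in progenitors, Sox4 and Sox11 in intermediate progenitor-like cells and new neurons, and Sox6 in radial glia-like and in mature GABAergic-like cells.

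Sox2, the progenitor factor, reached 272 and 327 CPM in radial glia-like cells of the 190 cell and 951 cell aliquots and 251 and 307 in cycling radial glia-like cells. It was at 129 and 143 CPM in intermediate progenitor-like cells, 15.7 and 26.5 in immature and 14.9 and 7.37 in mature glutamatergic-like cells. GABAergic-like cells differed from this, with 269 and 230 CPM in the immature and 363 and 167 in the mature class. From the top, the aliquots' values of radial glia-like, cycling radial glia-like, immature GABAergic-like and mature GABAergic-like cells overlapped between neighbours, whereas intermediate progenitor-like and both glutamatergic-like classes lay apart below them. A Sox2 UMI was found in 87.1% of radial glia-like and 53.5% of mature GABAergic-like cells, against 8.24% of mature glutamatergic-like cells, which had the deepest median of 11448 UMIs per cell (10677 and 4892 in the others). At an equal depth of 2000 UMIs per cell the expected shares were 41.8% in radial glia-like and 1.59% in mature glutamatergic-like cells.

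Sox9 was the most restricted to radial glia-like cells, at 283 and 224 CPM. The levels were 99.8 and 76.6 CPM in cycling radial glia-like cells, 36.8 and 68.3 in intermediate progenitor-like, 99.4 and 65.4 in immature GABAergic-like, 18.9 and 27.8 in immature glutamatergic-like and 11.1 and 8.85 in mature glutamatergic-like cells. Radial glia-like cells stood above every other class without overlap between aliquots, and among the next 3 classes only neighbours in the order of levels overlapped (cycling radial glia-like with immature GABAergic-like, and these with intermediate progenitor-like cells). In mature GABAergic-like cells there were 0 and 12 Sox9 UMIs, with a UMI in 7.04% of cells, beside 9.32% of the mature glutamatergic-like cells, which were sequenced more deeply. At 2000 UMIs per cell the expected shares were 3.42% and 1.72%, so no order of the 2 classes is read from them.

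Sox6 was counted sparsely. It reached 66.6 and 74.8 CPM (12 and 65 UMIs) in radial glia-like cells and 83.0 and 106 CPM (8 and 65 UMIs) in mature GABAergic-like cells. Cycling radial glia-like cells had 29.0 and 32.3 CPM, intermediate progenitor-like cells 12.3 and 48.3, and immature GABAergic-like cells 35.1 and 22.6. Immature glutamatergic-like cells held 1 and 4 UMIs and mature glutamatergic-like cells 1 and 0 among 279 cells. All these counts are small. A Sox6 UMI was seen in 58.6% of radial glia-like and 38.0% of mature GABAergic-like cells, and in 0.358% of mature glutamatergic-like cells, at median depths of 10677, 4892 and 11448 UMIs per cell. At 2000 UMIs per cell the expected shares were 13.9% in radial glia-like and 18.1% in mature GABAergic-like cells, so the order of these classes turned with depth.

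Sox4 and Sox11, the SoxC genes, were counted in nearly every cell and were lowest in radial glia-like and Cajal-Retzius-like cells. In radial glia-like cells Sox4 was at 582 and 570 CPM and Sox11 at 444 and 363. Sox4 rose to 1707 and 1488 CPM in cycling radial glia-like, 2931 and 2221 in intermediate progenitor-like and 3028 and 2110 in immature glutamatergic-like cells, and was at 1838 and 1305 in mature glutamatergic-like cells. Sox11 stood at 1481 and 1472 CPM in cycling radial glia-like, 2643 and 2574 in intermediate progenitor-like, 3019 and 3132 in immature glutamatergic-like and 1361 and 1505 in mature glutamatergic-like cells. The clusters pooled in these classes differed, with Sox11 over both aliquots at 3426 and 2699 CPM in those of the immature and 1270 and 1660 in those of the mature glutamatergic-like class. The highest Sox11 levels thus lay in immature glutamatergic-like and then intermediate progenitor-like cells, without overlap between aliquots. The Sox4 values of these classes overlapped each other and also those of immature GABAergic-like cells (2468 and 1853 CPM). Sox4 was, however, higher in the 190 cell aliquot in each of the 7 tested classes. Within each aliquot immature GABAergic-like cells lay below both of these classes, whose own order differed between the aliquots.

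In GABAergic-like cells Sox4 was at 2468 and 1853 CPM in the immature and 1970 and 1238 in the mature class, and Sox11 at 1784 and 1613 and at 1846 and 1805 CPM. Cajal-Retzius-like cells, the early-born neurons that secrete reelin, also had low SoxC levels, with 415 and 534 CPM of Sox4 and 575 and 351 CPM of Sox11 over only 3 and 13 cells. Together Sox4 and Sox11 made up 0.538% of all UMIs of immature glutamatergic-like cells and 0.0948% of those of radial glia-like cells.

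**Figure D2:**
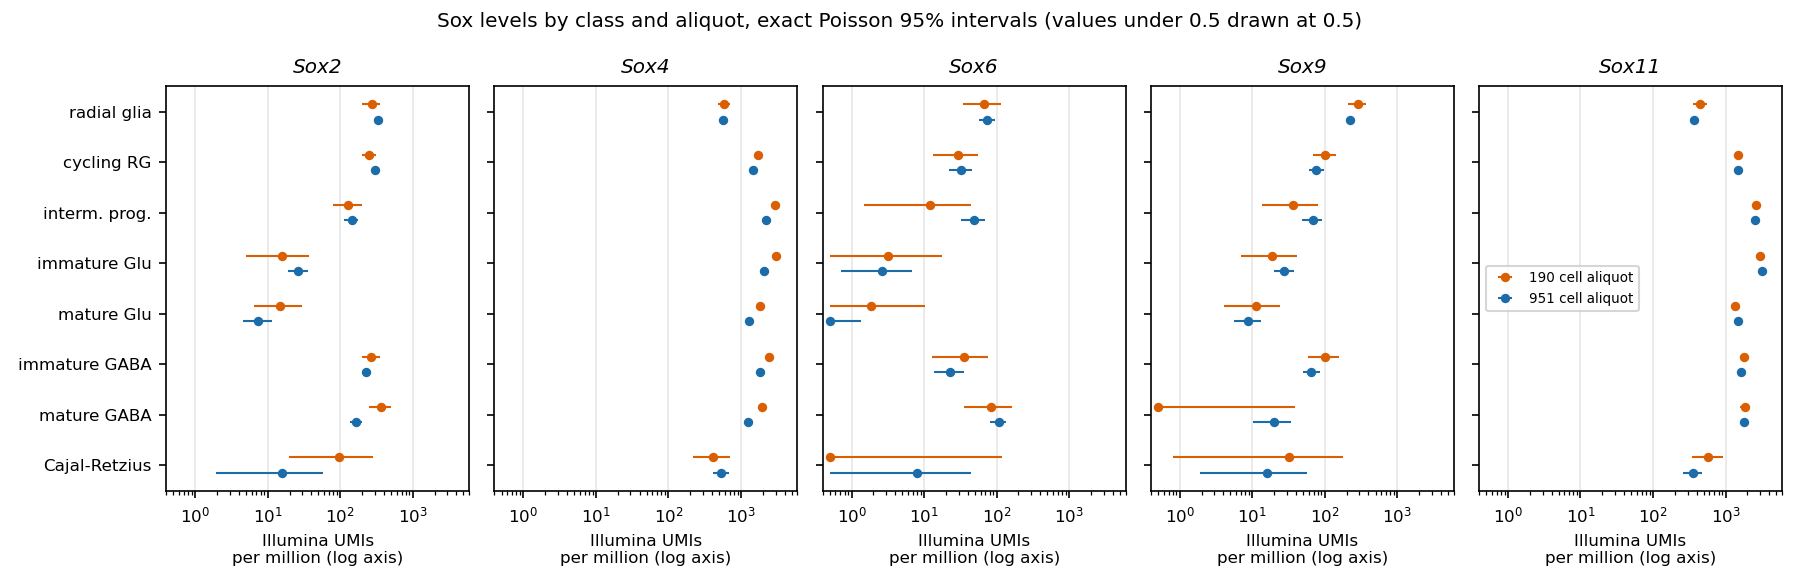
Illumina CPM on a log axis for each member in 8 classes (RG, radial glia; Glu, glutamatergic), with orange points for the 190 cell aliquot, blue points for the 951 cell aliquot and bars for exact Poisson 95% intervals (values under 0.5 are drawn at 0.5). Sox2 and Sox9 drop from radial glia to glutamatergic classes, Sox4 and Sox11 are lowest in radial glia-like and Cajal-Retzius-like cells, and Sox6 has its highest levels in radial glia and mature GABAergic cells.

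The class comparisons were tested with edgeR's quasi-likelihood test on Illumina UMIs summed per class and aliquot (n = 2 sums a class), in 1 fit over 7 classes, Cajal-Retzius-like cells being too few, with adjustment over 8482 genes. All 5 members passed the filter on low counts. Because the Sox genes had been left out of the clustering genes, they had not placed the cells in their classes. All comparisons below share sums, so they are given side by side and are not independent of each other.

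Between immature glutamatergic-like and radial glia-like cells, all 5 members were called, beside 31.4% of all genes tested (15.4% higher and 16.0% lower). Sox11 was higher in the neurons by 2.92 ± 0.17 on the log2 scale and Sox4 by 2.13 ± 0.19 (edgeR adjusted p = 4.84e-18 and 3.46e-11). Sox2 (-3.68 ± 0.29), Sox9 (-3.26 ± 0.30) and Sox6 (-4.63 ± 0.56) were lower (edgeR adjusted p = 3.88e-13, 6.89e-12 and 8.90e-09). In each of the 5 the aliquots of these classes did not overlap. The share of all genes for which this holds was not counted, so it is no result about the members. For Sox6 the 190 cell aliquot alone gave -2.75, from 12 UMIs in radial glia-like cells and 1 in the neurons. Log2 differences of 1 aliquot alone, here and below, come from log CPM with a small count added, without the edgeR fit. At low counts the added count shrinks them, so their size is not comparable with the fitted one. In CPM, Sox6 stood at 66.6 against 3.15 in the 190 cell and 74.8 against 2.65 in the 951 cell aliquot. Where clusters were joined at a lower resolution, so that radial glia-like cells also held intermediate progenitors, Sox4 no longer passed (0.78, edgeR adjusted p = 0.0768).

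In intermediate progenitor-like cells the SoxC genes were likewise higher. Against radial glia-like cells, Sox11 was higher by 2.70 ± 0.17 and Sox4 by 2.14 ± 0.19 (edgeR adjusted p = 1.80e-16 and 1.40e-10), whereas Sox2 (-1.14 ± 0.25) and Sox9 (-2.04 ± 0.30) were lower (adjusted p = 0.00114 and 1.30e-06). Sox6 had a log2 difference of -0.93 ± 0.42 and did not pass (edgeR adjusted p = 0.139). These are 4 of 5 members, beside 16.1% of all genes (7.49% higher and 8.58% lower).

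Between the cycling class and radial glia-like cells, 4 of 5 members were called, beside 12% of all genes (5.71% higher and 6.26% lower in the cycling cells). The cycling radial glia-like class was named from cell cycle genes only, so its name does not show that its cells are radial glia. Sox2 was the member not called, with a log2 difference of -0.11 ± 0.23 (edgeR adjusted p = 0.847). Sox11 was higher by 1.89 ± 0.16 and Sox4 by 1.47 ± 0.19 (edgeR adjusted p = 4.29e-12 and 4.31e-07), and Sox9 (-1.53 ± 0.27) and Sox6 (-1.20 ± 0.40) were lower (adjusted p = 4.87e-05 and 0.0428). The cycling class also differed in a lineage marker, since Dlx1, a homeobox gene of GABAergic progenitors, was at 213 CPM in it and at 8.58 in radial glia-like cells. Of 7 interneuron genes around Sox6, Dlx1 was the only 1 called. Of 6 neuronal genes linked to SoxC factors, 2 were called higher in the cycling class, Dcx (2.06 ± 0.24) and Map2 (0.96 ± 0.24). Fezf2 was called lower (-1.46 ± 0.29) and 3 were not called. Of 10 progenitor partners of SoxB1 and SoxE factors, 5 were called lower, among them Hes5 (-3.30 ± 0.27), Hes1 (-2.66 ± 0.38) and Nes (-0.90 ± 0.30). Another 2 were called higher, among them Pou3f2 (0.92 ± 0.22), and 3 were not called. The part of these genes' cells in the Sox differences was not tested. The Sox6 call was lost with DESeq2 (adjusted p = 0.387), without a filter on low counts (0.0764) and without the barcodes shared by the aliquots (0.0834), and at the lower resolution the call was lost for Sox4, Sox6 and Sox11 (0.16, -0.76 and 0.14). With the aliquot as a replicate block 1683 in place of 1015 genes were called.

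Among glutamatergic-like cells, the mature class had less of 4 of the 5 members than the immature class, beside 3.38% of all genes called (2.02% higher and 1.37% lower). These classes also differ in neuron type markers. Fezf2, a factor of deep-layer neurons, was higher in the mature class (2.07 ± 0.25) and Cux2 was lower (-2.84 ± 0.45). Neuron type and maturity cannot be told apart here. Sox11 fell by 1.03 ± 0.15 (edgeR adjusted p = 1.12e-05) and kept this call in each alternative tested. Sox4 (-0.63 ± 0.18), Sox2 (-1.29 ± 0.36) and Sox9 (-1.36 ± 0.38) were lower close to the threshold (edgeR adjusted p = 0.0395, 0.0364 and 0.0347), and each of these lost its call in at least 1 alternative. In the 190 cell aliquot alone the differences, shrunk by the added count, were -0.02 for Sox2 and -0.46 for Sox9. Sox2 was at 15.7 CPM in the immature and 14.9 in the mature class there, so its difference rests on the larger aliquot. Sox9 was at 18.9 and 11.1 CPM there (6 UMIs in each class), and at 27.8 and 8.85 in the 951 cell aliquot. Sox4 was lower in the mature class in both aliquots, at 1838 against 3028 CPM in the 190 cell and 1305 against 2110 in the 951 cell aliquot. Sox6, with 5 UMIs against 1, had an edgeR adjusted p of 0.284. With the aliquot as a replicate block the members' calls were the same, and 930 in place of 287 genes were called.

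The GABAergic-like classes differ in lineage markers as well as in maturity. The immature class was led by Ebf1, Isl1, Zfhx3 and Foxp2, genes known from striatal neurons, and the mature class by Maf, Nxph1, Npy and Sst, genes known from cortical interneurons, and Lhx6, an interneuron factor, was higher in the latter (3.97 ± 0.84). Lineage and maturity cannot be told apart here. The mature class had more Sox6 (log2 fold change 1.84 ± 0.44, edgeR adjusted p = 0.0101) and less Sox9 (-2.25 ± 0.44, adjusted p = 0.000958) than the immature class, beside 2.78% of all genes called (1.24% higher and 1.54% lower). Sox11 and Sox2 differed by -0.03 ± 0.15 and -0.22 ± 0.26 (edgeR adjusted p = 1.0 and 0.872). Sox4 had a log2 difference of -0.60 ± 0.18 and did not pass (adjusted p = 0.0749), but passed with the aliquot as a replicate block (-0.62 ± 0.10, edgeR adjusted p = 1.13e-06). The block raised the number of genes called from 236 to 489. The Sox6 call was lost with DESeq2 (adjusted p = 0.265), and the 190 cell aliquot alone gave 0.93 for Sox6 and -3.78 for Sox9.

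The difference between the mature and immature classes was compared between glutamatergic-like and GABAergic-like cells. This term was chosen after the values had been seen, and 1.98% of all genes were called (1.3% higher and 0.684% lower). On the GABAergic side the classes also differ in the lineage markers named above, and on the glutamatergic side in Fezf2 and Cux2. The Sox11 difference was more negative among glutamatergic-like than among GABAergic-like cells (difference of the log2 fold changes -0.99 ± 0.22, edgeR adjusted p = 0.00492). So was that of Sox6 (-4.34 ± 1.22, edgeR adjusted p = 0.0472), with 1 UMI in mature glutamatergic-like cells and a value of -1.09 in the 190 cell aliquot alone. The block raised the number of genes called from 168 to 406. The other 3 members were not called, and for Sox4 the difference was -0.03 ± 0.26 (edgeR adjusted p = 1.0).

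The mature GABAergic and glutamatergic classes were separated by Sox2 and Sox6, which is 2 of 5 members beside 9.28% of all genes (3.24% higher and 6.04% lower), or 1284 in place of 787 genes with the replicate block. Sox2 was higher in the GABAergic-like cells by 4.45 ± 0.32 on the log2 scale (edgeR adjusted p = 1.57e-13). Sox6, with 73 against 1 UMI, had 335 times the CPM (95% exact conditional interval 58.3 to 13400, counting error only, edgeR adjusted p = 8.91e-12). The fitted log2 difference was 7.51 ± 0.67. The 190 cell aliquot alone, with 8 UMIs against 1, gave 3.08 for Sox6 after the small count was added. Sox4 (-0.18 ± 0.18), Sox9 (0.68 ± 0.53) and Sox11 (0.17 ± 0.15) did not pass (edgeR adjusted p = 0.686, 0.563 and 0.643).

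**Figure D3:**
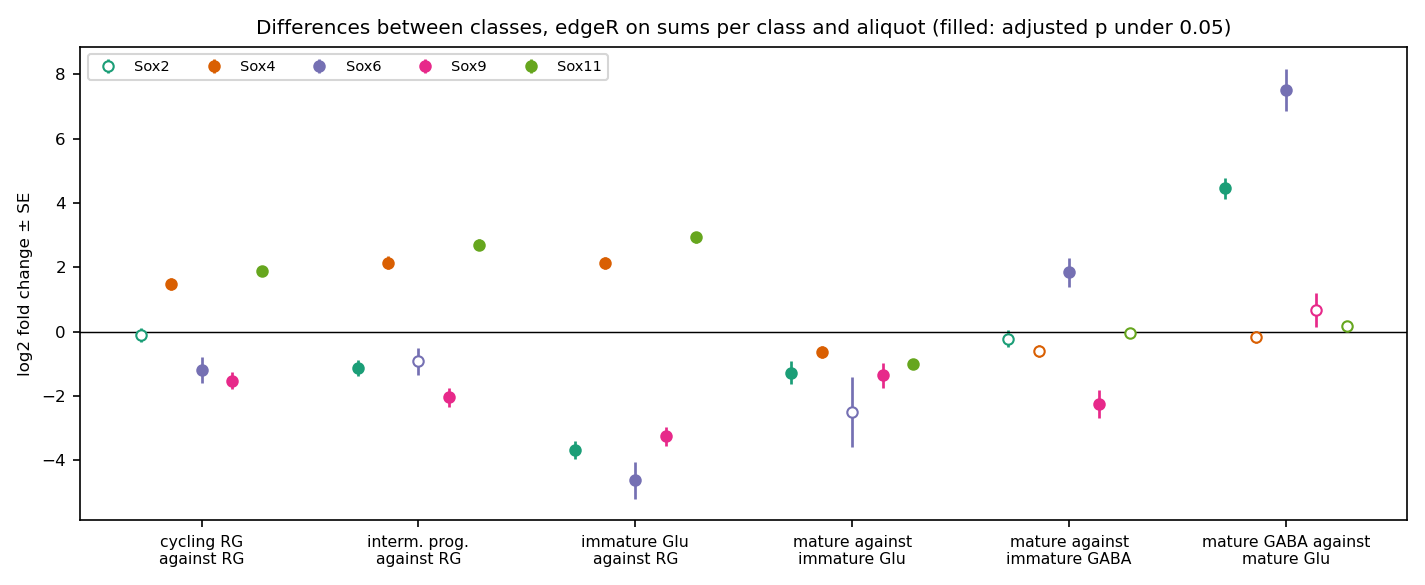
Log2 fold change with its SE (y axis) of the 5 members in 6 comparisons between classes (RG, radial glia; Glu, glutamatergic), with filled circles for edgeR adjusted p under 0.05. Sox4 and Sox11 lie above 0 and Sox6 and Sox9 below 0 in the 3 comparisons with radial glia, and Sox2 at 4.45 and Sox6 at 7.51 are the only filled points for mature GABAergic against mature glutamatergic cells. The fitted 7.51 rests on 1 UMI in the mature glutamatergic cells.

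The genes that work alongside the members were counted in the same fits. They had not been kept out of the clustering, so these counts describe the classes. Of 10 progenitor partners of SoxB1 and SoxE factors, 6 were lower and 3 higher in immature glutamatergic-like than in radial glia-like cells (median log2 fold change -1.83, against -0.002 over all genes, of which 15.4% were called higher and 16.0% lower). The POU factors Pou3f2 and Pou3f3, which bind DNA together with Sox proteins, were among the higher ones (1.90 ± 0.22 and 1.43 ± 0.23), as was Nfib (0.83 ± 0.21), while Nfia fell by 0.77 ± 0.23. From immature to mature glutamatergic-like cells 3 of the 10 fell and none rose, beside 1.37% and 2.02% of all genes, among them Pou3f2 (-1.95 ± 0.21) and Pou3f3 (-1.59 ± 0.22).

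Of 6 neuronal genes linked to SoxC factors, 3 were higher and 3 lower in immature glutamatergic-like than in radial glia-like cells, where 31.4% of all genes were called. Dcx and Map2, which bind microtubules, rose by 3.36 ± 0.24 and 1.97 ± 0.23, and Tubb3, a neuronal tubulin, rose by 2.94 ± 0.52. Fezf2, a factor of deep-layer neurons, was lower there (-1.23 ± 0.27) and higher in mature than in immature glutamatergic-like cells (2.07 ± 0.25), where Sox4 and Sox11 were lower. Of 7 interneuron genes around Sox6, all 7 were higher in mature GABAergic-like than in mature glutamatergic-like cells (median 4.38, against -0.08 over all genes, of which 3.24% were called higher). Against immature GABAergic-like cells 4 of the 7 were higher, beside 1.24% of all genes, among them Cux2 (3.89 ± 0.52), the neuropeptide gene Npy (3.53 ± 0.53) and Satb1 (1.99 ± 0.41), while Dlx1 had a difference of -0.22 ± 0.23 and did not pass.

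Of the 15 other Sox genes 6 could be tested between classes. Sox21 (-4.54 ± 0.55) and Sox1 (-1.41 ± 0.47) were lower in immature glutamatergic-like than in radial glia-like cells, as was Sox8, which had 35 UMIs in radial glia-like cells and 0 in the neurons, while Sox12 rose by 0.79 ± 0.31 (edgeR adjusted p = 0.0484). Sox1, a SoxB1 gene like Sox2, was also higher in mature GABAergic-like than in mature glutamatergic-like cells (5.66 ± 0.51). Sox5 differed in the opposite direction to its SoxD relative Sox6, with 125 CPM in mature glutamatergic-like and 11.3 in mature GABAergic-like cells (-3.70 ± 0.44, edgeR adjusted p = 4.60e-08).

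Within single cells, joint detection was counted. Both Sox4 and Sox11 had a UMI in 1084 of 1121 cells (96.7%), where any Sox4 UMI was seen in 97.6% and any Sox11 UMI in 98.6%. Both had a UMI in 57 of 70 radial glia-like cells (81.4%), where each was seen in 88.6%. Across cells of a class their depth-scaled log levels correlated with Pearson's r from 0.21 (175 immature GABAergic-like cells) to 0.57 (87 intermediate progenitor-like cells), a description only, as both values share a cell's depth. Sox2 and Sox9 were found together in 55 of 70 radial glia-like cells (78.6%), in 39.3% of cycling radial glia-like and 20.7% of intermediate progenitor-like cells, and in 3 of 279 mature glutamatergic-like cells. Sox2 and Sox6 were found together in 32 of 142 mature GABAergic-like cells (22.5%), where Sox2 was seen in 53.5% and Sox6 in 38.0%. Joint shares depend on how often each gene was detected. They were not tested against that and are not read as co-expression.

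The aliquots differed in the balance of Sox4 and Sox11. Over all cells there were 1.17 Sox4 UMIs per Sox11 UMI in the 190 cell aliquot and 0.848 in the 951 cell aliquot. In immature glutamatergic-like cells the ratio was 1.00 against 0.674, in mature glutamatergic-like cells 1.35 against 0.867 and in mature GABAergic-like cells 1.07 against 0.686. Sox4 CPM was higher in the smaller aliquot in 7 of 7 tested classes, with a median log2 difference of 0.41 (after adding 10 CPM), and 3.77% of the 8482 genes tested were higher there in 7 of 7. Sox11 was higher there in 5 of 7 classes with a median of 0.03. With 1 library per aliquot this difference has no replicate check, and it was not tested.

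**Figure D4:**
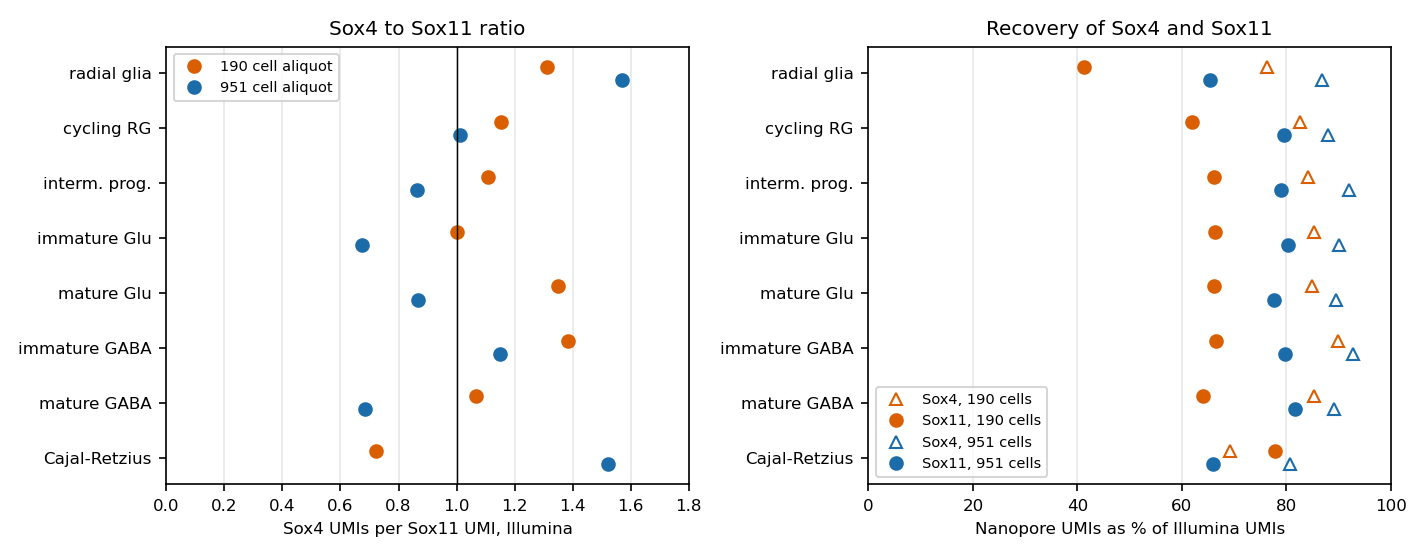
Left, Illumina UMIs of Sox4 per UMI of Sox11 in each class, and right, Nanopore UMIs as a percent of Illumina UMIs for Sox4 (open triangles) and Sox11 (filled circles), in orange for the 190 cell and blue for the 951 cell aliquot (RG, radial glia; Glu, glutamatergic). The ratio is higher in the 190 cell aliquot in the 6 classes between radial glia and Cajal-Retzius cells, and the recovery of Sox11 is lower in that aliquot in all classes but Cajal-Retzius cells.

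Sox11 was also recovered less fully in the smaller aliquot. Its recovery of 64.9% against 79.0% is a difference of -14.1 percentage points, while the median difference over 1373 genes was -4.02. Of these genes 1.75% had a more negative difference than Sox11, against 40.9% for Sox4 and 66.1% for Sox2. In immature glutamatergic-like cells Sox11 was at 66.2% and 80.2%, and in mature GABAergic-like cells at 64.0% and 81.7%.

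Genes with the most similar pattern over the 16 sums of class and aliquot were sought among 5844 genes with at least 200 UMIs, by Pearson's r of log2(CPM + 10). For Sox4 these were Foxp4 (0.90), Ahsa2 (0.90) and Mn1 (0.90), and for Sox11 Csnk1e (0.91), Cct2 (0.90) and Scrt2 (0.90). Sox9 was most like Gnai2 (0.94), Akr1b3 (0.91) and Hmg20b (0.88), Sox6 like Npas3 (0.89), Qk (0.88) and Nacc2 (0.84), and Sox2 like Nedd4 (0.84), Phlda1 (0.83) and Mcm6 (0.83). The sums of a library share its depth, and the genes were picked as the highest of many, so these values describe the pattern only.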

How the data were processed

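Transcripts of dissociated mouse brain cells were read in aliquots of 190 and 951 cells on both platforms. The authors made the deposited Illumina counts with Cell Ranger 2.0 (mm10) as UMI counts per gene, and the Nanopore counts with Sicelore as UMI counts per Gencode isoform, without normalization. Cells with at least 1400 Illumina genes were kept, with median depths of 8048.5 and 7551 Illumina and 4394 and 4487 Nanopore UMIs per cell in the 190 and 951 cell aliquots. Depth limits counts of single UMIs, and all intervals cover counting error only.

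Seurat 5.3.0 integrated the aliquots over 1990 variable genes, from which 10 Sox genes had been removed, with 11 dimensions and a resolution of 0.8. Clusters were named from marker lists. Scrublet (scanpy 1.11.5) called 3 and 4 doublets, which were kept in the main analysis. The 3 microglia-like cells were set aside after the data were seen. UMIs were summed per library or per class and aliquot and tested with edgeR 4.0.16 (TMM, filterByExpr, robust quasi-likelihood fit, Benjamini-Hochberg adjustment over all genes tested, threshold 0.05). Nanopore values of a gene are sums over its isoforms. Exon numbers and sequences came from Gencode vM21, matched by symbol for 5697 of 5862 genes. Simulated 4-fold changes were recovered for 90% of 200 genes between platforms (9855 genes) and for 68% between immature glutamatergic-like and radial glia-like cells (8482 genes), with 27 and 13 false calls, and 2-fold changes for 41.5% and 10%.

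The aliquot number marks 1 library and pairs its sums: deviations from group means correlated at 0.597 between platforms and at 0.139 to 0.341 (median 0.223) over 21 pairs of classes. The members and gene lists were chosen with earlier results of these data known. Besides the members, the text names other Sox genes with at least 100 Illumina UMIs, up to 4 genes of each list by UMI total, and the 3 genes most like each member. Hes1, Hes5, Nes, Lhx6 and the marker genes named otherwise fall outside this rule and were chosen after their values were seen. Alternatives were RLE normalization, DESeq2 1.42.0, no low-count filter, the replicate block, Sox genes kept for clustering, a resolution of 0.5, no doublets, Nanopore UMIs, and each aliquot left out. In class comparisons with 1 aliquot left, values are differences of log CPM with a small count added, without the edgeR fit. Leaving out shared barcodes, keeping the microglia-like cells and comparing mature with immature classes between glutamatergic-like and GABAergic-like cells were added after the data were seen.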

Additional observations from a re-analysis of the deposited data

Results flagged for a closer look

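The difference between mature and immature classes was not the same in glutamatergic-like and GABAergic-like cells for Sox11, with a difference of the log2 fold changes of -0.99 ± 0.22 SE (edgeR adjusted p = 0.00492), and the 190 and 951 cell aliquots alone gave -0.97 and -1.07. For Sox6 the difference was -4.34 ± 1.22 (edgeR adjusted p = 0.0472), and the aliquots alone gave -1.09 and -3.40. These values of single aliquots have a small count added, which shrinks them at such low counts, so their size is not comparable with the fitted one. The Sox6 call was lost with DESeq2 (adjusted p = 0.243), without called doublets (edgeR adjusted p = 0.266) and without the shared barcodes (edgeR adjusted p = 0.0575). The GABAergic-like classes also differ in lineage, the immature one being led by Ebf1, Isl1 and Foxp2 and the mature one by Maf, Npy and Sst. The glutamatergic-like classes also differ in Fezf2 (2.07 ± 0.25) and Cux2 (-2.84 ± 0.45). On both sides cell type and maturity cannot be told apart. This comparison was added after the data were seen.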

How the results depend on the processing

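From immature to mature glutamatergic-like cells, 4 members were called as reported, 2 with RLE normalization, at a resolution of 0.5, without doublets, with Nanopore UMIs or without shared barcodes, and 1 with DESeq2. For cycling radial glia-like against radial glia-like cells 4 became 1 at a resolution of 0.5 and 2 with Nanopore UMIs. For mature against immature GABAergic-like cells 2 became 1 with DESeq2 and 0 with Nanopore UMIs, and between the mature neurons 2 became 1 with Nanopore UMIs. For the difference between glutamatergic-like and GABAergic-like cells 2 became 1 with DESeq2, without doublets or without shared barcodes. The cause of these changes was not tested. The differences that changed sign, none of them called, were those of Sox2, Sox11 and Sox9 in 1 comparison each. For Sox2 it was cycling radial glia-like against radial glia-like cells (0.016 without a filter, 0.37 at a resolution of 0.5, 0.012 without shared barcodes). For Sox11 it was mature against immature GABAergic-like cells (0.017 with RLE, 0.025 with DESeq2, 0.022 with Nanopore UMIs). For Sox9 it was the mature neurons (-2.65 with Nanopore UMIs). That value rests on 0 Nanopore UMIs in mature GABAergic-like and 3 in mature glutamatergic-like cells. With the aliquot as a replicate block the call of Sox4 in GABAergic-like cells was gained (-0.62) and no other member's call changed. DESeq2 called 3071 in place of 4976 genes between platforms, and 1503, 74, 636, 323, 83, 326 and 65 in place of 2665, 287, 1363, 1015, 236, 787 and 168 in the class comparisons, in the order immature glutamatergic-like, mature glutamatergic-like, intermediate progenitor-like, cycling, mature GABAergic-like, mature neurons and difference between glutamatergic-like and GABAergic-like cells. Nanopore UMIs called 155 genes in GABAergic-like cells. At a resolution of 0.5 intermediate progenitor-like cells had no cluster of their own, so that comparison gave no value, and with 1 aliquot a class comparison has a value but no test. Isoform usage gave no value. Depth limits Sox6 most, at 254 Illumina UMIs over all cells.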
